A study of Zea mays with 6 samples.

Results

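The 51 genes described here were listed at clearly higher levels in apl replicates 1 and 3 than in any other library of the study, out of 44303 genes in all. They were selected on these TPM values: the lower of a gene's values in apl replicates 1 and 3 had to be at least 6 times the highest of its values in Z58 replicates 1, 2 and 3 and apl replicate 2, after 1 TPM was added to every value. TPM is a relative transcript abundance, a share of a fixed library total, corrected for transcript length. Rows 27251 to 27500 of the table in identifier order were left out by the rule, and 0 genes there reached the ratio, so their exclusion removed none. The rule used the values of all 6 libraries, so the levels below describe the chosen genes. Where p-values of a fit over all genes are given for them, these too come from the libraries that the rule used, and nothing is read from them.

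The study profiled mRNA of maize (Zea mays) leaves from 2 genotypes with 3 libraries each. Z58 is the inbred line Zheng58, taken here as the wild type. The other genotype is labelled apl, and all apl seedlings share the Zheng58 background. Leaves, described by the series as second leaves of seedlings, were taken 10 days after germination from untreated greenhouse plants, as far as the labels say. The labels name neither the locus changed in apl nor the way it was changed, and they do not say whether each library came from 1 plant, several plants or repeat preparations, so the spread between libraries of a group may be partly technical.

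A maize leaf fixes carbon by the C4 pathway, which is shared between mesophyll cells and the bundle sheath cells around each vein. Such a sample mixes these cells with epidermis, guard cells, phloem and xylem. The level of a transcript therefore reflects both the make-up of the tissue and the RNA in each cell, and fewer cells of a type and less RNA per cell cannot be told apart in it. The deposited identifiers are not paired with gene names, and 0 of the 44303, hence 0 of the 51, matched any of 49888 maize genes in a RefSeq gene list of the B73 line. No role, symbol or position in the genome is given here for any of them, and leaf cell markers could not be checked. Identifiers are printed for 2 of the 51 genes. The others are named by their rank, from 1 for the highest ratio to 51 for the lowest.

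The 3 apl libraries did not resemble each other equally. Over the 20411 genes whose mean was 1 TPM or more, log2(TPM + 1) of apl replicate 2 correlated with the Z58 libraries at 0.950 to 0.955 and with apl replicates 1 and 3 at 0.885 and 0.900. Between apl replicates 1 and 3 the correlation was 0.952, and that of either with the Z58 libraries was 0.887 to 0.912. These are correlations across genes. The number of genes listed above 0 was 26464 to 27184 in Z58, 28391 and 28149 in apl replicates 1 and 3, and 26742 in apl replicate 2. TPM holds no read depth, so the counting error of each value is unknown. The labels record nothing that sets apl replicate 2 apart from the other apl libraries. Without that library the same ratio gave 89 genes, the 51 among them.

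**Figure D1:**
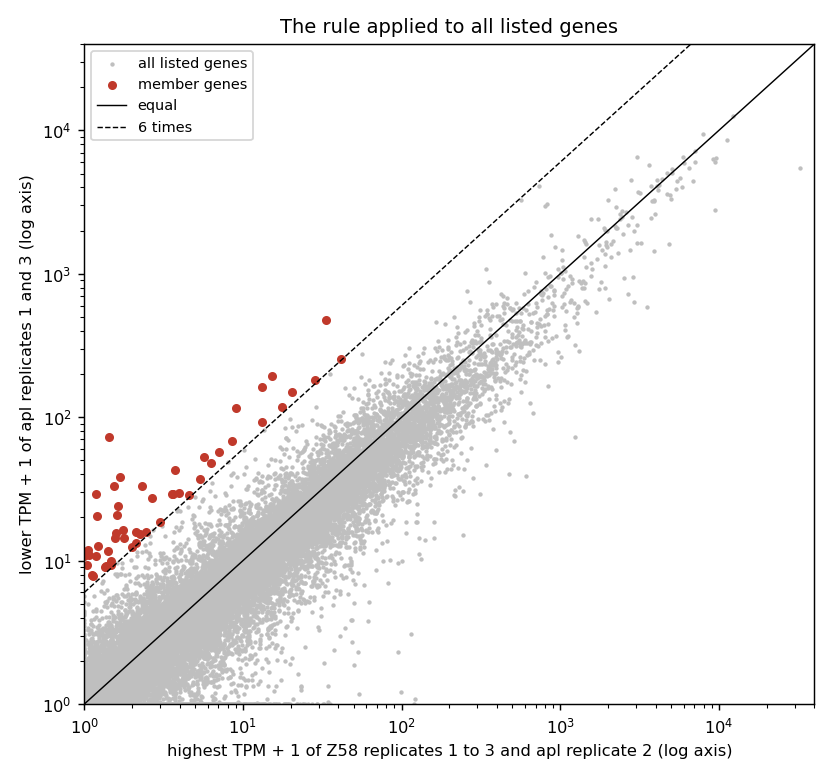
Each point is 1 of the 44303 listed genes, with the highest TPM + 1 among the Z58 libraries and apl replicate 2 on the horizontal axis and the lower TPM + 1 of apl replicates 1 and 3 on the vertical axis, both on log scales. The 51 red points are the genes on or above the dashed line at 6 times, and they lie at the low and middle part of the horizontal axis, at 40.54 TPM or less.

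The largest ratio belonged to Zm00001eb431990. It stood at 0.27, 0.44 and 0.13 TPM in Z58 replicates 1, 2 and 3, at 277.89 and 71.58 TPM in apl replicates 1 and 3, and at 0.28 TPM in apl replicate 2. Apl replicate 2 lay inside the Z58 range, and the other apl libraries lay far above it. The lower of the high values was 50.4 times the highest of the other 4, in TPM + 1. By abundance the gene ranked 399 in apl replicate 1 and 1885 in apl replicate 3, against ranks between 21784 and 24403 in the other 4 libraries. The group values were 0.28 ± 0.155 TPM in Z58 and 116.6 ± 144.2 TPM in apl (SD, n = 3 each), so the SD of the apl group exceeded its mean.

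The gene with the highest level in both high libraries was Zm00001eb429480. It had 23.44, 18.47 and 32.37 TPM in Z58 replicates 1, 2 and 3, 805.89 and 474.9 TPM in apl replicates 1 and 3, and 25.01 TPM in apl replicate 2. It was thus already a moderately expressed gene in the 4 low libraries, where it ranked between 4046 and 6487 by abundance, and it ranked 131 and 230 in apl replicates 1 and 3. Its ratio was 14.3, the eighth of the 51. Its group values were 24.8 ± 7.04 TPM in Z58 and 435.3 ± 391.9 TPM in apl (SD, n = 3 each).

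Over the 51 genes the ratio ran from 6.10 to 50.4 with a median of 8.21. It was at least 8 in 29 genes, at least 10 in 18 and at least 20 in 4. At the threshold there was no gap. The member ranked 51 had 29.24, 26.87 and 40.54 TPM in Z58, 338.55 and 252.57 TPM in apl replicates 1 and 3, and 30.97 TPM in apl replicate 2, a ratio of 6.10. The gene just outside the rule had 8.55, 7.67 and 12.67 TPM in Z58, 92.65 and 80.7 TPM in apl replicates 1 and 3, and 4.1 TPM in apl replicate 2, a ratio of 5.98. Another 73 tested genes had a ratio of 4 to under 6.

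**Figure D2:**
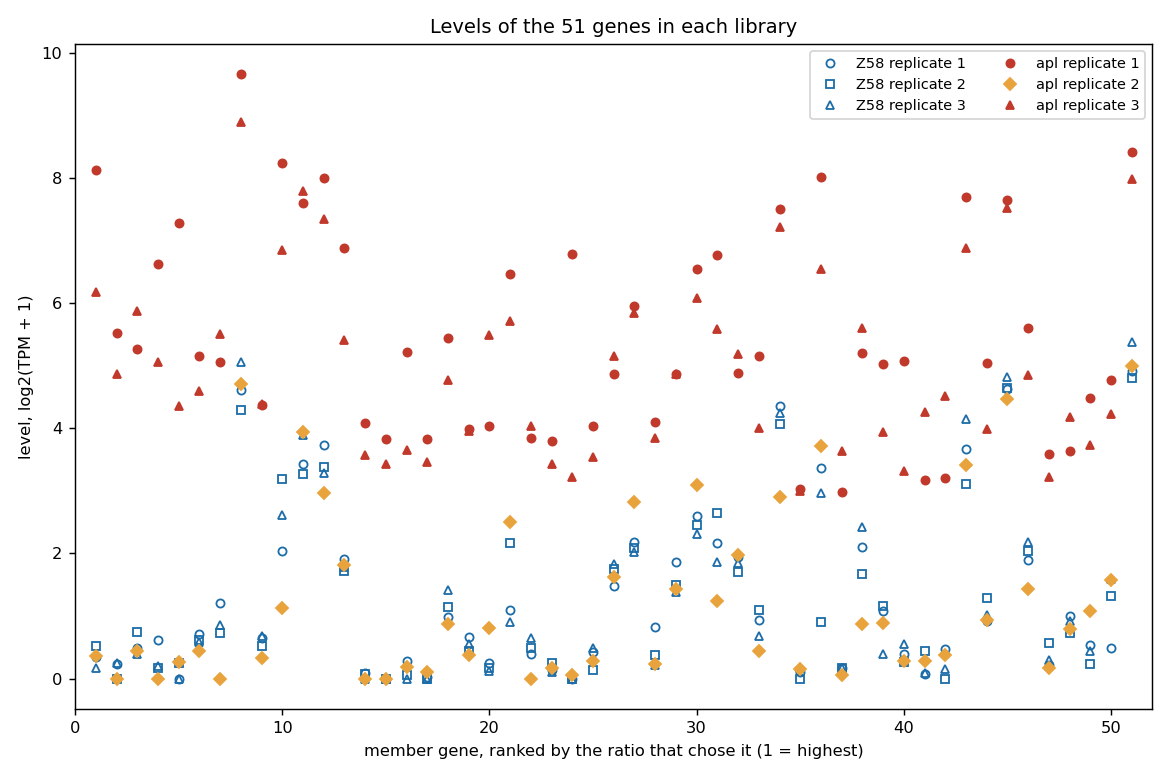
The level of each of the 51 genes is plotted as log2(TPM + 1) in the 6 libraries, with genes ordered by rank of the ratio from 1 (50.4) to 51 (6.10). Filled red circles and triangles are apl replicates 1 and 3, orange diamonds are apl replicate 2 and open blue symbols are the Z58 libraries. The orange and blue symbols lie together, well below the red ones for every gene, as the rule requires, while the level of the low libraries differs widely between genes.

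Together the 51 genes made up a small part of each transcriptome. Their TPM summed to 184.6, 163.2 and 209.4 in Z58 replicates 1, 2 and 3, which was 0.0194%, 0.0171% and 0.0218% of the listed TPM. The sum in apl replicate 2 was 170.0 TPM, or 0.0180%, inside the Z58 range. In apl replicates 1 and 3 the sums were 4615 and 2847 TPM, or 0.485% and 0.306%. The median gene stood at 0.78, 0.66 and 0.60 TPM in Z58, 0.74 TPM in apl replicate 2, and 34.5 and 26.4 TPM in apl replicates 1 and 3. At least 100 TPM was reached by 14 of the 51 in apl replicate 1 and 8 in apl replicate 3, and by 0 in any of the other 4 libraries.

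The genes differed in the level from which they stood out. In 25 of the 51 the highest of the 4 low libraries was under 1 TPM, so these transcripts were scarce in Z58 leaves and in apl replicate 2. Their values in apl replicates 1 and 3 ran from 6.86 to 277.89 TPM. Among them the member ranked 15 was the only one listed at 0 in all 4 low libraries, and it had 13.13 and 9.74 TPM in apl replicates 1 and 3. The member ranked 24 was listed at 0 in all 3 Z58 libraries too, with 0.04 TPM in apl replicate 2. An exact 0 is only what the table lists, since the depth is unknown. In all, 12 of the 51 were listed at 0 in at least 1 of the 4 low libraries, and 6 were listed at 0 in apl replicate 2.

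Another 14 genes had a highest low value of 1 to under 5 TPM, with 12.23 to 116.23 TPM in apl replicates 1 and 3. The member of this class with the largest ratio, ranked 7, had 1.31, 0.66 and 0.81 TPM in Z58, 0 in apl replicate 2, and 32.18 and 44.54 TPM in apl replicates 1 and 3. A further 9 genes had a highest low value of 5 to under 20 TPM and reached 46.81 to 300.26 TPM. The first of these by ratio, ranked 10, had 3.12, 8.08 and 5.13 TPM in Z58, 1.18 TPM in apl replicate 2, and 300.26 and 114.38 TPM in apl replicates 1 and 3. In both of these examples apl replicate 2 was the lowest of the 6 libraries.

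The remaining 3 genes had a highest low value of 20 TPM or more, and 182.2 to 805.89 TPM in apl replicates 1 and 3. They were Zm00001eb429480 and the members ranked 45 and 51. Across the 51 genes the level in apl replicate 1 had a Spearman correlation of 0.66 with the highest Z58 level. The rule itself ties both levels, since a gene with a higher Z58 level needs a higher apl value to enter.

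The set is labelled higher in apl replicates 1 and 3 only, and the rule itself kept apl replicate 2 low. What follows describes the set and is no check of its label against apl replicate 2. That library lay inside the Z58 range in 23 of the 51 genes, above it in 11 (21.6%) and below it in 17 (33.3%). For all 20411 tested genes the shares were 28.2% above and 39.4% below. So apl replicate 2 was higher than every Z58 library in some of the genes. The largest excess was 1.55 times in TPM + 1, and it was at least 1.5 times in 1 gene. That gene, ranked 27, had 3.53, 3.26 and 3.07 TPM in Z58, 6.03 TPM in apl replicate 2, and 61.1 and 56.26 TPM in apl replicates 1 and 3. The rule sets an upper limit on apl replicate 2 in the 51 genes and none over all tested genes. Nothing is read from the small excess or from the lower share above the Z58 range.

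In the other direction the distance was at least 1.5 times in 5 genes. It was largest for the member ranked 34, at 2.25 times in TPM + 1. This gene had 19.49, 15.77 and 17.84 TPM in Z58, 6.45 TPM in apl replicate 2, and 179.98 and 148.18 TPM in apl replicates 1 and 3. The 3 apl libraries thus lay on both sides of a narrow Z58 range. The rule sets no lower limit on apl replicate 2.

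**Figure D3:**
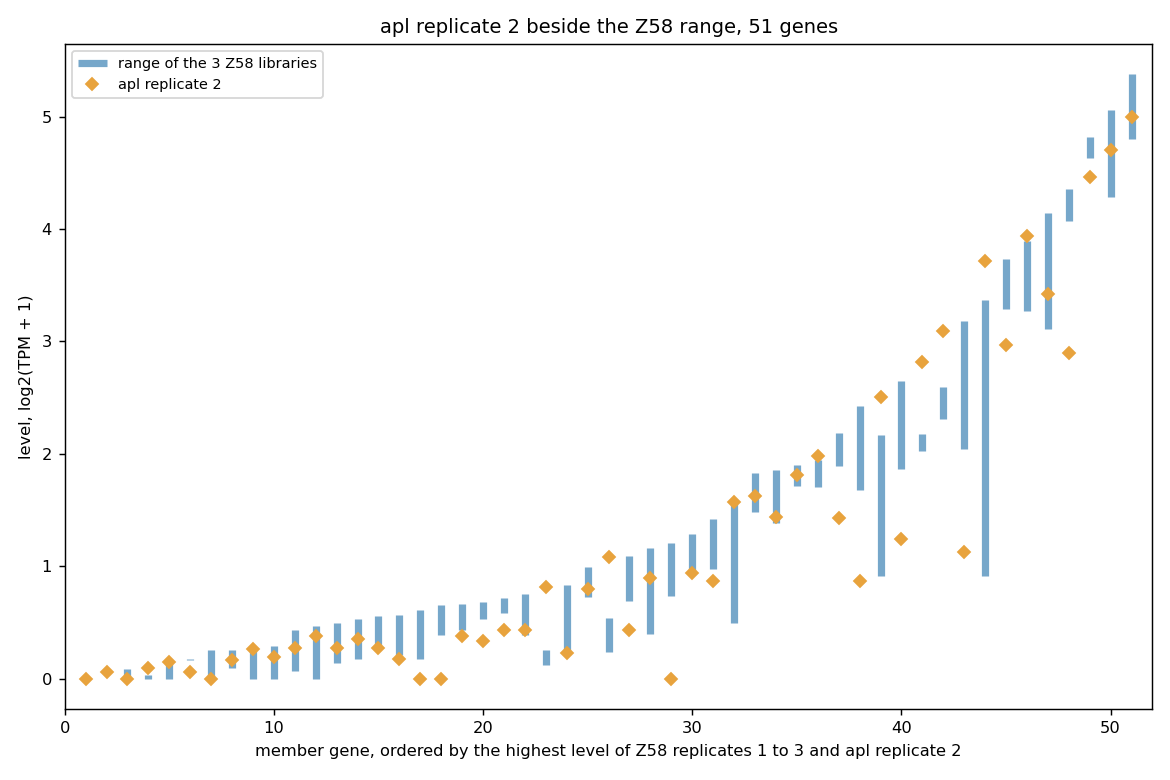
For each of the 51 genes the blue bar spans the lowest to the highest of the 3 Z58 libraries and the orange diamond marks apl replicate 2, in log2(TPM + 1), with genes ordered by the highest of these 4 values. The diamond lies inside the bar in 23 genes, above it in 11 and below it in 17.

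Among the Z58 libraries the highest value was a median of 1.27 times the lowest in TPM + 1, beside 1.18 times over all tested genes. For the 28 to 30 genes under 1 TPM in each Z58 library, the added 1 TPM holds this measure near 1. The highest value was at least 2 times the lowest in 5 of the 51. The widest spread, 5.51 times, was that of the member ranked 36, which had 9.35, 0.88 and 6.82 TPM in Z58 replicates 1, 2 and 3. That gene had 12.15 TPM in apl replicate 2 and 256.45 and 92.12 TPM in apl replicates 1 and 3, so even its highest Z58 value lay well below both.

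Apl replicates 1 and 3 shared the direction by the rule but not always the size. Apl replicate 1 was the higher in 37 of the 51 genes (72.5%), apl replicate 3 in 13, and both had 28.23 TPM for the member ranked 29. Over all tested genes apl replicate 1 was the higher in 48.5%. The median of apl replicate 1 over apl replicate 3 was 1.37 times in TPM + 1 for the 51 genes and 0.995 times for all tested genes. Both libraries lay within 1.5 times of each other in 25 of the 51.

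The excess of apl replicate 1 was not limited to the 51 genes. Apl replicate 1 was the higher in 51.2% of the 5510 tested genes with a ratio above 1 and under 2, in 68.1% of the 529 with a ratio of 2 to under 3, in 73.6% of the 125 with 3 to under 4, and in 79.5% of the 73 with 4 to under 6. The same share was 69.7% of the 33 genes of the set with a ratio of 6 to under 10 and 77.8% of the 18 with 10 or more. All these classes are cut on the same libraries and are given as a description.

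Apl replicate 1 was at least 2 times apl replicate 3, in TPM + 1, in 13 of the 51 genes (25.5%), beside 3.08% of all tested genes. It was at least 3 times apl replicate 3 in 4 of the 51. Apl replicate 3 was at least 2 times apl replicate 1 in 3 of the 51, beside 2.91% of all tested genes. The rule used both libraries, so these shares are a description. The widest difference was that of the member ranked 24, with 109.58 TPM in apl replicate 1 and 8.29 TPM in apl replicate 3, or 11.9 times. The member ranked 5 had 154.43 and 19.46 TPM, or 7.60 times, and stood at 0.20 TPM or less in the other 4 libraries. The opposite case was the member ranked 20, with 15.43 TPM in apl replicate 1 and 43.74 TPM in apl replicate 3, or 2.72 times the other way. Across the 51 genes the levels in both libraries had a Spearman correlation of 0.75. The rule ties these levels too, since both must reach 6 times the same highest value of the other 4 libraries, in TPM + 1.

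**Figure D4:**
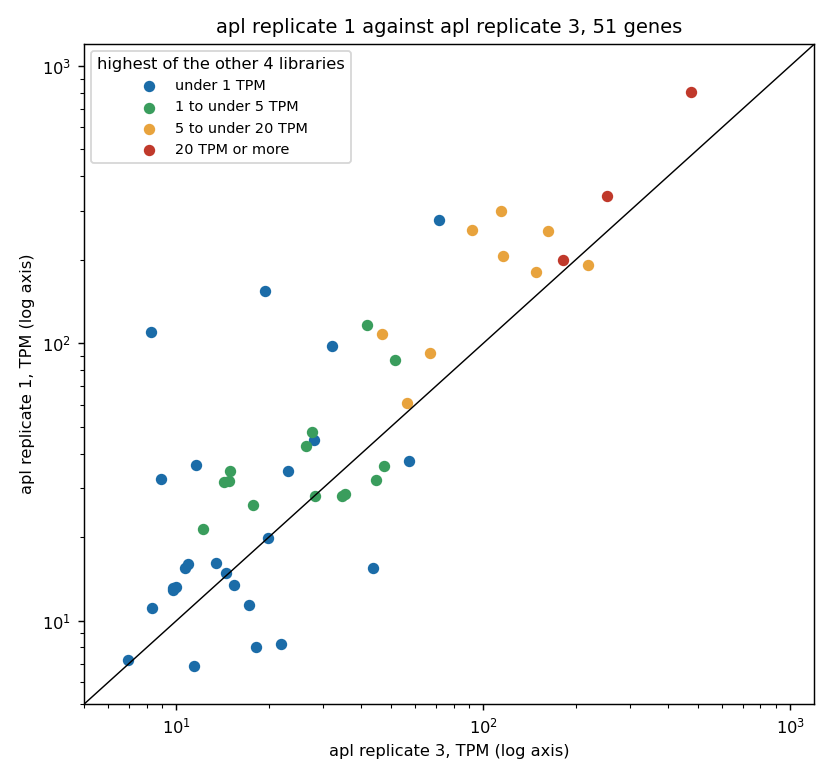
The TPM of each of the 51 genes in apl replicate 1 is plotted against that in apl replicate 3 on log axes, with the diagonal marking equal values and colours giving the highest level among the other 4 libraries. Of the points, 37 lie above the diagonal and 13 below it, and the farthest from it is a gene under 1 TPM in the other libraries with 109.58 TPM in apl replicate 1 and 8.29 TPM in apl replicate 3.

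The comparison that the labels give is apl against Z58, with 3 libraries each. All 51 genes passed the filter on the mean. The 25 that were under 1 TPM in the other 4 libraries passed it only through the high values of apl replicates 1 and 3. So did some with a highest low value of 1 to under 5 TPM, such as the member ranked 7. In the limma fit over all 20411 tested genes, 0 of the 51 were called at an adjusted p under 0.05, beside 1.41% of all tested genes in either direction and 0.661% in the higher direction. At an unadjusted p under 0.05 there were 16 of the 51, beside 9.03% of all tested genes that were higher in apl at that level. This count moved with the setting. It was 3, 51 and 1 without apl replicate 1, 2 or 3. Beside these, 1224 of 19978, 5630 of 20511 and 1092 of 20189 tested genes were higher in apl at that level. Without Z58 replicate 1, 2 or 3 the count of the 51 was 5, 3 and 5. The tested genes higher in apl were then 1101 of 20473, 1066 of 20502 and 942 of 20526. With a replicate block the count of the 51 was 33, beside 1557 of 20411 tested genes higher in apl. After quantile normalization it was 25, beside 1507 of 20381, and with no filter 5, beside 2249 of 44303. With a filter of 5 TPM it was 10, beside 1084 of 13526, where only 42 of the 51 were tested. The fitted change, apl minus Z58, ran from 1.65 to 4.54 on the log2(TPM + 1) scale with a median of 2.42, and the median change of all tested genes was 0.04. The median SE of the 51 changes was 1.04, and the lowest adjusted p was 0.172 by limma. The rule sets apl replicate 2 apart from apl replicates 1 and 3 and so fixes a wide spread within the apl group, and nothing is read from the absence of calls.

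For Zm00001eb431990 the fitted change was 4.54 ± 1.88 (SE) on the log2(TPM + 1) scale, with a limma adjusted p of 0.261. It was 2.92 without apl replicate 1 and 3.89 without apl replicate 3 (limma adjusted p = 0.488 and 0.495), with a range of 2.92 to 6.80 when each library was left out in turn. For Zm00001eb429480 it was 3.10 ± 1.25 (SE), with a limma adjusted p of 0.256. In 11 of the 51 genes all 3 apl values lay above all 3 Z58 values. These 11 are the same genes in which apl replicate 2 exceeded the Z58 range, since the rule already placed apl replicates 1 and 3 above it. Over all tested genes the share was 12.7%, but there none of the 3 apl libraries was placed by the rule. Apl replicate 2 alone was above the Z58 range in 21.6% of the 51 and 28.2% of all tested genes. These shares are not alike either, since the rule limits apl replicate 2 from above in the 51 only. Nothing is read from their difference.

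Without apl replicate 2 the fit rests on 2 apl libraries, which were those the rule used. All 51 genes were then called higher by limma, beside 20.2% of the 20511 tested genes called higher. The choice of the genes fixed this outcome, and nothing is read from it. The fitted change ran from 2.89 to 6.80 with a median of 3.67 on the log2(TPM + 1) scale. It was 6.80 ± 0.54 (SE, limma adjusted p = 0.00139) for Zm00001eb431990 and 4.62 ± 0.30 (SE, limma adjusted p = 0.00103) for Zm00001eb429480. The share of all tested genes called higher in this fit was 16.6% after median-of-ratios rescaling and 14.8% after quantile normalization.

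The rule made no use of the order of identifiers apart from the excluded rows. In the table sorted by identifier the 51 genes were scattered: the median distance between neighbouring members was 515 rows and the longest 6887. Cut into 10 equal stretches, from the first to the last, the table held 8, 8, 3, 7, 5, 4, 0, 5, 2 and 9 of the genes. The tested genes in the same stretches numbered 2089, 2174, 1967, 2107, 2062, 2044, 2021, 2113, 2039 and 1795. Row distances are places in the list and were not checked against chromosome positions.

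Within this scatter, 10 of the 51 lay in 5 pairs no more than 10 rows apart. In 2 pairs the identifiers were consecutive rows. The members ranked 14 and 17 formed the first of these. The former had 0.06, 0.05 and 0 TPM in Z58, 15.99 and 10.93 TPM in apl replicates 1 and 3, and 0 in apl replicate 2. The latter had 0.02, 0 and 0 TPM in Z58, 13.27 and 10.0 TPM in apl replicates 1 and 3, and 0.07 TPM in apl replicate 2. Their levels were close in every library.

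The members ranked 21 and 36 formed the second consecutive pair. The former had 1.14, 3.49 and 0.88 TPM in Z58, 86.97 and 51.72 TPM in apl replicates 1 and 3, and 4.67 TPM in apl replicate 2. The values of the member ranked 36, given above, were the lower in Z58 replicate 2 and the higher in each of the other 5 libraries. Among the Z58 libraries, replicate 2 was thus the highest for one gene of the pair and the lowest for the other. Whether the genes of a pair are near-identical copies between which reads could be split was not tested, so the level of each single gene in a pair is uncertain.

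The members ranked 9 and 7 stood 2 rows apart, around a gene listed at 0 in all 6 libraries. The member ranked 9 had 0.57, 0.44 and 0.60 TPM in Z58, 19.78 and 19.89 TPM in apl replicates 1 and 3, and 0.26 TPM in apl replicate 2. Apl replicates 1 and 3 were thus nearly equal for the member ranked 9, while the member ranked 7 was higher in apl replicate 3. Both genes of this pair were lowest in apl replicate 2. The members ranked 51 and 11 stood 6 rows apart. The gene ranked 11 had 9.73, 8.64 and 13.89 TPM in Z58, 192.08 and 219.43 TPM in apl replicates 1 and 3, and 14.3 TPM in apl replicate 2. An abundant gene between them had 285.92, 229.02 and 304.79 TPM in Z58, 498.68 and 503.88 TPM in apl replicates 1 and 3, and 252.68 TPM in apl replicate 2, a ratio of 1.63.

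The last pair, ranked 44 and 29, also stood 6 rows apart. The member ranked 44 had 0.89, 1.44 and 1.03 TPM in Z58, 31.92 and 14.85 TPM in apl replicates 1 and 3, and 0.92 TPM in apl replicate 2. The member ranked 29 had 2.62, 1.81 and 1.61 TPM in Z58, 28.23 TPM in both apl replicates 1 and 3, and 1.70 TPM in apl replicate 2. The 5 genes listed between them had ratios of 0.654 to 1.35, so the pair was interrupted by genes without a comparable difference.

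**Figure D5:**
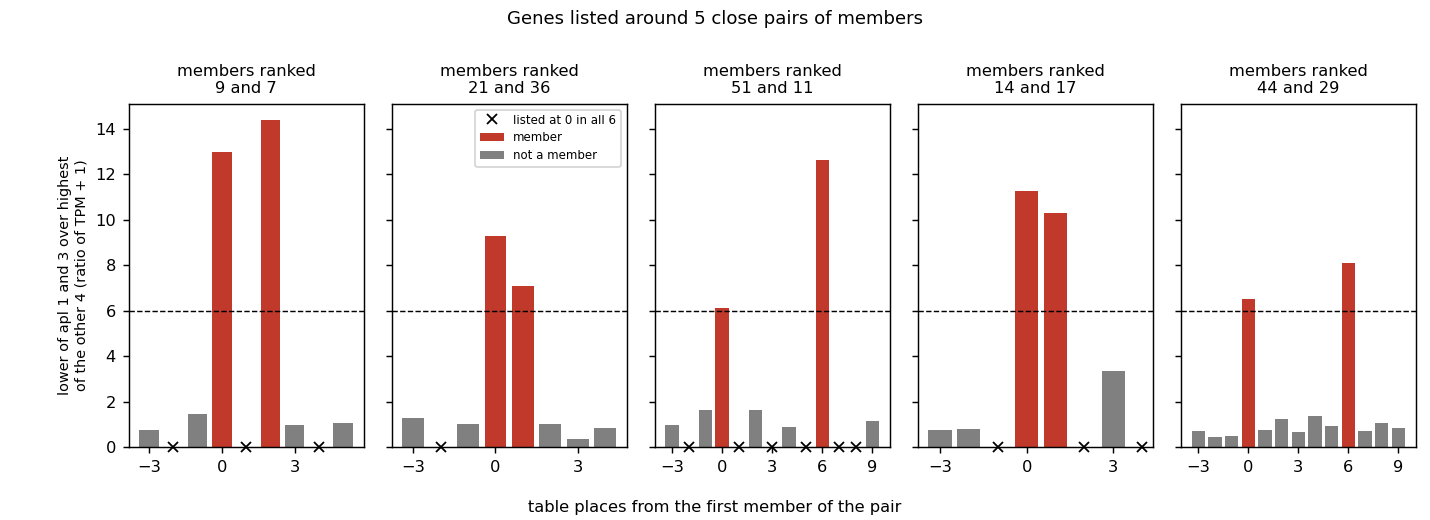
Each panel shows 1 of the 5 close pairs with the 3 rows before and after it. Bars give the ratio of the lower of apl replicates 1 and 3 to the highest of the other 4 libraries in TPM + 1, red for the 10 members and grey for other genes, crosses mark genes listed at 0 in all 6 libraries, and the dashed line is the ratio of 6. Among the grey bars the tallest is a gene with a ratio of 3.36, next but one to the pair ranked 14 and 17.

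The genes listed directly before or after a member, and not members themselves, numbered 97, of which 45 were tested. Their median ratio was 0.859, close to the 0.846 of all tested genes. Apl replicates 1 and 3 both exceeded the other 4 libraries in 15 of the 45 (33.3%), beside 31.0% of all tested genes. A ratio of at least 2 was seen in 6 of the 45 (13.3%), beside 3.85% of all tested genes, a difference that was not tested. The filter on the mean also counts apl replicates 1 and 3. A neighbour scarce in the other 4 libraries, as most of the 6 were, was tested only through its high values there. Nothing is read from this difference. The highest of the 6 stood next to the member ranked 4. It had 0.76, 0.38 and 1.15 TPM in Z58, 18.3 and 9.75 TPM in apl replicates 1 and 3, and 0 in apl replicate 2, a ratio of 5.00. The member ranked 4 itself had 0.53, 0.13 and 0.15 TPM in Z58, 97.47 and 32.23 TPM in apl replicates 1 and 3, and 0 in apl replicate 2. The second highest, next to the member ranked 10, had a ratio of 3.58, and the other 4 had ratios of 2.05 to 2.78.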

How the data were processed

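The authors deposited TPM values for each of the 3 Z58 and 3 apl libraries in a single table. The tools named, per the submitters' processing notes, were RSEM, HISAT2, DESeq2 and Trimmomatic 0.36, with no role or order given. The genome build is not given in the sources used here. The listed genes summed to 930426 to 959685 TPM per library. As shares of a total, these values also depend on the most abundant transcripts.

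The ratio that defines the 51 genes was computed with Python 3.11.15 and pandas 2.3.3 on TPM + 1. For the comparison of apl with Z58, limma 3.58.1 (R 4.3.3) was run on log2(TPM + 1) of genes averaging 1 TPM or more over the libraries, with genotype as the only term and a mean-variance trend. Two-sided p-values received Benjamini-Hochberg adjustment over all tested genes (threshold 0.05). The fit was also run on simulated data in which all apl libraries shared each change. That setting lacks the split of apl replicate 2 from the other apl libraries, so nothing is read from it for these genes. Spearman correlations used SciPy 1.17.1 and carry no p.

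The genes and the lists were chosen with earlier results of these data known. Identifiers are printed for the member with the highest ratio and the member with the highest lower level in apl replicates 1 and 3, and the genes described by rank were singled out after their values were seen. The 13 gene lists by symbol could not be applied (0 used). Alternatives were other pseudocounts, filters, scalings and ratios, a replicate block, and leaving out each library. The 2 rescalings without apl replicate 2 were added after the data were seen.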

Additional observations from a re-analysis of the deposited data

How the results depend on the processing

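The number of genes in the set depended on the rule's settings. It was 239 with a pseudocount of 0.1 TPM and 10 with 5 TPM, 124 at a ratio of 4 and 29 at a ratio of 8, and 44 or 43 after median-of-ratios rescaling or quantile normalization. Leaving out each library in turn gave 59 to 278 genes, the most without apl replicate 3, with 104 without apl replicate 1 and 89 without apl replicate 2. All 51 genes were kept whenever a library was left out, which the rule ensures. In the fit of apl against Z58, 0 of the 51 were called under every alternative except those without apl replicate 2, where 51 were called, also after both rescalings. Leaving out each library in turn gave 0 to 51. With a filter of 5 TPM only 42 of the 51 were tested. The count over all tested genes was 287. It ranged from 84 to 7140 when each library was left out in turn: 85, 84 and 93 without Z58 replicate 1, 2 or 3, and 132, 7140 and 156 without apl replicate 1, 2 or 3. It was 7208 and 7079 after median-of-ratios rescaling and quantile normalization without apl replicate 2. With a replicate block it was 25, and 0 of the 51 were called (lowest limma adjusted p = 0.0742, range of the lowest over the alternatives with all 6 libraries 0.0742 to 0.406). The labels do not say whether a shared replicate number marks a shared day or batch. Same-numbered libraries deviated from their group means with correlations of -0.04, 0.05 and -0.02. The apl deviations carry the split of apl replicate 2 from apl replicates 1 and 3, so nothing is read from these correlations about pairing. Depth is not known from TPM, so low values carry an unknown counting error.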
